A study of Mus musculus with 6 samples.

Results

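The genes described here are 47 interferon signalling genes and interferon-stimulated genes, chosen by name. They comprise 15 upstream genes (4 receptor subunits, 3 kinases and 8 transcription factors) and 32 effectors, the genes whose products act downstream. Their expression was read in 6 lines grown from lung tumours of a mouse small cell carcinoma model, 3 labelled non-SMC and 3 labelled SMC, with 1 array per line. Of the 47 genes, 44 had a probe that could be named, and 39 entered the test, which covered 19848 features (genes or unnamed probes) in all. Mx1, Mx2 and Dtx3l were not matched to a probe. Irf8, Oas1a, Oas2, Oas3 and Gbp4 were measured but not tested, because their probes were well above background on 2 of the 3 non-SMC arrays and on at most 1 SMC array.

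Both groups came from lung tumours of C57BL/6J mice of genotype Rb1L/L, Trp53L/L, that is, with conditional alleles of both tumour suppressors, and this genotype was shared by all 6 lines. The labels place the lines in 3 pairs of 1 non-SMC and 1 SMC line, of which pair 2 carries the label male and the other pairs female. They name no treatment, do not spell out SMC, and give neither an age nor the means of recombination, nor whether a line is 1 clone. The comparison within pairs asks how the SMC lines differ from the non-SMC lines. Whether the lines of a pair came from 1 tumour is not stated either, so p-values measure the spread between these 3 pairs of lines. A value is the log2 signal of a probe minus the 75th percentile of the array it was read on, so that 0 is the level of that percentile, and a difference is SMC minus non-SMC.

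Of 41174 probes, 26385 to 28185 stood well above background, depending on the line, and none was saturated. The arrays of SMC 1, SMC 2, non-SMC 2 and non-SMC 3 lay on 1 slide, while non-SMC 1 and SMC 3 each lay on another. All 12 neuroendocrine markers of the list used here were well above background in every line except non-SMC 1, where 10 were. Their summed log2 signal was 1.99, 7.26 and 2.63 in non-SMC lines 1 to 3 and 8.67, 8.44 and 8.21 in SMC lines 1 to 3, so non-SMC 1 and non-SMC 3 were low for a small cell carcinoma label. The 8 fibroblast markers summed to 8.55, 6.75 and 8.31 in the non-SMC lines and to 1.33, -0.99 and 0.79 in the SMC lines, and these groups did not overlap. Singly, Col1a1, Col1a2, Col3a1 and Pdgfrb were lower in all SMC lines, whereas Pdgfra, Dcn, Lum and Thy1 overlapped between groups. Thy1 differed by 0.91, and Dcn was at -4.58 in non-SMC 1 and 0.66 in SMC 1.

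Interferons are secreted cytokines that cells release when they sense viral nucleic acid or when immune cells instruct them to. Type I interferons bind a receptor of IFNAR1 and IFNAR2, and interferon gamma binds IFNGR1 and IFNGR2; the kinases JAK1, TYK2 and JAK2, bound to these receptors, then phosphorylate STAT proteins. STAT2 with IRF9 forms part of the complex that binds the interferon-stimulated response element (ISRE), whereas STAT dimers bind the gamma-activated site (GAS), and the genes switched on there block viral entry, replication and translation or mark the vacuoles of pathogens. Some tumour lines keep part of this programme running without added interferon.

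Promoter sequences show how the members differ in these elements. RefSeq promoter windows (GRCm38.p6) of 300 bases, 250 before to 50 after the annotated start, were at hand for 40 of the 47 genes, 49 windows in all. A core of the ISRE, GAAA and again GAAA with any 2 bases (NN) between them, read on both strands, was present in 14 of 25 effectors with a window and in 2 of 15 upstream genes, Irf2 and Stat2; over windows the shares were 45.2% and 11.1%, against 3.44% of all 32851 windows of this length. The palindrome TTCNNNGAA, the core of the GAS, was present in 29.0% of effector windows and 27.8% of upstream windows, against 8.30% of all windows. Matches of the 2 motifs were counted separately and copies may share bases. A match is a description of the sequence, not a measured binding site.

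The following windows are printed because these genes carry the results below. Ifnar2 is the upstream gene that passed the test, and Gbp2 and Igtp are effectors that passed it. The signal of Isg15, Ifit1, Oas1a and Rsad2 set lines of the same group apart. Each window is the 250 bases before the annotated start, 5′ to 3′ in the direction of transcription, with matches to either motif in capitals.
Ifnar2 (chr16:91372533-91372782, plus strand): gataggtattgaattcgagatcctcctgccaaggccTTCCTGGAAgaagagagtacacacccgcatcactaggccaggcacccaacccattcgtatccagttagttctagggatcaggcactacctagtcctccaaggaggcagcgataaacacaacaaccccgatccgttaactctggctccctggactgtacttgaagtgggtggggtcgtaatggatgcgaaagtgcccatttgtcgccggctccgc
Gbp2 (chr3:142620413-142620662, plus strand): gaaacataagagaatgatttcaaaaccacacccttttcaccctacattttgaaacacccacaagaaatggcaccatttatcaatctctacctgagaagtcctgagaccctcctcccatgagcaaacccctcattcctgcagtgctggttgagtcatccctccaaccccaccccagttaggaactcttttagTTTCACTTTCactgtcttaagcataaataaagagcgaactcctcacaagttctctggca
Igtp (chr11:58199306-58199555, plus strand): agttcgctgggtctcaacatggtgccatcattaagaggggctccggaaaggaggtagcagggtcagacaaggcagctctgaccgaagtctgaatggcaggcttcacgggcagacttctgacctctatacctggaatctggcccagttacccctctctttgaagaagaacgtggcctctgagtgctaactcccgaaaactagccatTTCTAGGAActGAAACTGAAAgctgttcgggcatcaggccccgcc
Isg15 (chr4:156200819-156201068, minus strand): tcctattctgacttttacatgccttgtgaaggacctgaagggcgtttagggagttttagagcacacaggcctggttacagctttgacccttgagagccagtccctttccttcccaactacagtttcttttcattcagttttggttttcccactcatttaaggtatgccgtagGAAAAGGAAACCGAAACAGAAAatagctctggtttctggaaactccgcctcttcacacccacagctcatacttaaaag
Ifit1 (chr19:34640639-34640888, plus strand): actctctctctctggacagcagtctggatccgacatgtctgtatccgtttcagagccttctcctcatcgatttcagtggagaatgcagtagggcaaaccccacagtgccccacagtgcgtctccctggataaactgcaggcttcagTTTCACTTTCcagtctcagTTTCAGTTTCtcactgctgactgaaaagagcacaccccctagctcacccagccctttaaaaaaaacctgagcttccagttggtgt
Oas1a (chr5:120907526-120907775, minus strand): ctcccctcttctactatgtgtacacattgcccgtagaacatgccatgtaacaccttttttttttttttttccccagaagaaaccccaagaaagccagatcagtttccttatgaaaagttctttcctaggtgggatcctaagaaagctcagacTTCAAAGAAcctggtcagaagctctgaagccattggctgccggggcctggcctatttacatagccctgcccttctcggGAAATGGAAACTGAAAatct
Rsad2 (chr12:26456453-26456702, minus strand): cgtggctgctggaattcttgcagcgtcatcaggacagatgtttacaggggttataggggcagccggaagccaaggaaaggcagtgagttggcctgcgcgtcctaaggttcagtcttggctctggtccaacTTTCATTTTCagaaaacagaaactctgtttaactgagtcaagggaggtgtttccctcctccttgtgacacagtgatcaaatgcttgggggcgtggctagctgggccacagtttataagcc
In these windows, positions counted back from the start put the first ISRE core of Igtp at -34, of Gbp2 at -59, of Isg15 at -78 (with further overlapping copies, 3 in all), of Ifit1 at -104 with a second at -85, and of Rsad2 at -120. Oas1a held ISRE cores at -20 and -14, which overlap, and a GAS core at -98. Igtp also held a GAS core at -45. The Ifnar2 window held a GAS core at -214 and no ISRE core. Of the other effectors that passed the test, Ifitm1, Xaf1, Samd9l and Ifi44 had windows without a match to either motif, and Parp14 had no window.

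Of the 39 interferon genes tested, 8 were lower in the SMC lines and 0 were higher (limma on the 3 pairs, adjusted p under 0.05). The 8 were the receptor subunit Ifnar2 and the effectors Parp14, Gbp2, Ifitm1, Igtp, Xaf1, Samd9l and Ifi44. Over all features, 3.03% were called lower and 0.156% higher, which is 602 and 31 features (974 and 239 with each array scaled to its median). At an unadjusted p under 0.05, 27 interferon genes were lower and 0 higher, beside 11.8% of all features lower and 14.9% higher (2338 and 2964 features). Because 10 of the 39 genes entered the test only through the non-SMC lines, the filter favoured genes lower in SMC. The counts over genes measured on all 6 arrays are therefore the fairer ones. Of 28 such genes, 4 were called lower (Ifnar2, Ifitm1, Igtp and Xaf1), against 1.08% of all features measured on all arrays. In 21 of these 28 every SMC line lay below every non-SMC line, against 12.8% of the features measured on all arrays; for all 39 it was 30 genes, against 15.4% of all features.

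Effectors differed by more than upstream genes did, as a description. The median difference was -1.64 over the 14 upstream genes tested and -4.25 over the 25 effectors, beside 0.18 over all features. Over genes measured on all arrays the medians were -1.22 for 12 upstream genes and -2.61 for 16 effectors, beside 0.15. Over all genes tested, the order was the same within each pair. For upstream genes and effectors respectively, the medians were -0.81 and -2.98 in pair 1, -1.42 and -4.80 in pair 2, and -2.29 and -5.10 in pair 3. The difference between these medians was not tested. Among the upstream genes 1 of 14 was called lower, and among the effectors 7 of 25, beside 3.03% of all features. However, 2 of these upstream genes and 8 of these effectors entered the test only through the non-SMC lines. Over genes measured on all arrays the counts were 1 of 12 and 3 of 16, beside 1.08% of such features.

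**Figure D1:**
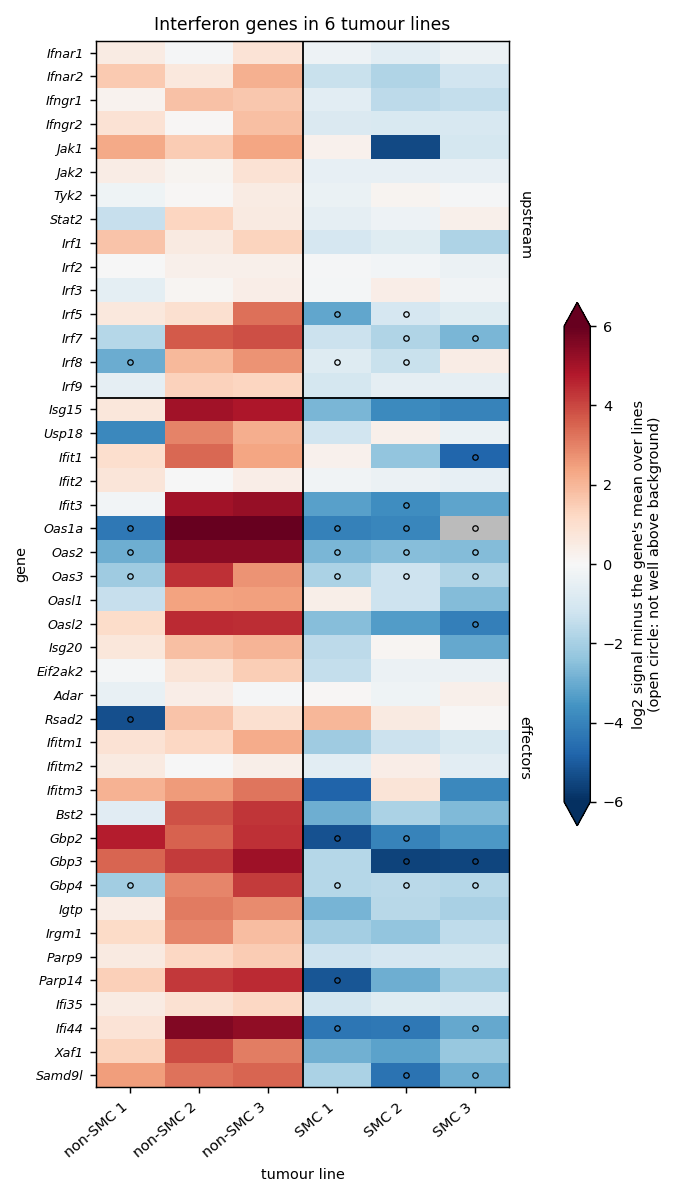
Heat map of the 44 interferon genes with a named probe (rows, upstream genes above the line, effectors below) in the 6 tumour lines (columns). Colour is the log2 signal minus the gene's mean over the lines, an open circle marks a signal not well above background, and grey marks no usable spot; most effectors are red in non-SMC 2 and non-SMC 3, and 13 of them are over 2 log2 units lower in non-SMC 1 than in both of those lines.

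The calls rest on few pairs, and each pair left out changed them. Without pair 1, 7 interferon genes were lower, 3 of them among the 8, against 1.04% of all features. Without pair 2, 5 were lower, again 3 of them among the 8, against 2.5% of all features lower (496) and 523 features higher. Ifnar2 passed in neither fit. Fitted without the pair as a term, 15 interferon genes were lower (2 upstream, 13 effectors), among them all 8, against 4.91% of all features, whereas without pair 3 no feature passed in either direction; at an unadjusted limma p under 0.05 that fit had 20 interferon genes lower and 0 higher, and 1743 features lower and 924 higher. With the slide as a block 5 interferon genes were lower, against 2.35% of all features, and on the shared slide alone, without the pair, 12, against 3.08%. Sizes depended on the background correction: with normexp, which adds an offset, the difference was -4.24 for Parp14, -4.80 for Gbp2, -1.70 for Ifitm1, -2.55 for Samd9l, -3.35 for Xaf1 and -3.41 for Ifi44, and Xaf1 and Ifi44 no longer passed (adjusted p = 0.052 and 0.0921). In RNA of whole cultures, fewer cells of a type and less RNA per cell cannot be told apart, and the part of the fibroblast markers in the differences was not tested.

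All 4 receptor genes had their lowest values in the SMC lines, against 15.4% of all features. Of the 4, 1 passed the test, against 3.03% of all features called lower. Ifnar2, the signalling-competent chain of the type I interferon receptor, had a log2 signal of 2.79, 1.85 and 3.35 in non-SMC lines 1 to 3 and of -0.09, -0.56 and 0.09 in SMC lines 1 to 3. Every SMC line was below every non-SMC line, and the difference of -2.85 ± 0.33 (SE, 3 pairs) is a 7.20-fold lower signal (limma adjusted p = 0.0366). The other Ifnar2 probe gave -2.98, again without overlap. Ifnar1, the partner chain, measured 0.49, -0.08 and 0.82 in the non-SMC lines and -0.29, -0.62 and -0.37 in the SMC lines. Its groups did not overlap either, but the difference of -0.84 ± 0.31 did not pass (adjusted p = 0.189).

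For the interferon gamma receptor, Ifngr1, the ligand-binding chain, measured 1.89, 3.44 and 3.31 in non-SMC lines and 1.05, 0.12 and 0.24 in SMC lines. Ifngr2, the chain that brings JAK2, measured 2.16, 1.38 and 3.08 against 0.40, 0.37 and 0.33. In both genes all SMC lines were lowest, with differences of -2.41 ± 0.62 (adjusted p = 0.128) and -1.84 ± 0.45 (adjusted p = 0.122). The SMC lines were nearly equal for Ifngr2, and its spread came from the non-SMC lines.

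None of the 3 receptor kinases passed the test. Jak1, which serves both receptor types, measured 4.03, 3.29 and 4.14 in non-SMC lines 1 to 3 and 2.03, -3.66 and 0.72 in SMC lines 1 to 3. The SMC 2 line was far below the others, and a second Jak1 probe showed the same, at 1.11, -4.53 and -0.21 in the SMC lines. With this spread the difference of -4.12 ± 1.07 had an adjusted p of 0.129. Jak2, the kinase of the gamma receptor, measured 1.36, 1.10 and 1.78 against 0.40, 0.41 and 0.42. All SMC lines were lower and nearly equal, and the difference was -1.0 ± 0.31 (adjusted p = 0.154). Tyk2, the kinase bound to IFNAR1, measured -1.95, -1.63 and -1.23 against -2.12, -1.54 and -1.76. These groups overlapped and differed by -0.20 ± 0.30 (adjusted p = 0.699).

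Of the 7 transcription factors tested, which carry the signal to DNA, 0 passed. At an unadjusted limma p under 0.05, 3 were lower and 0 higher, beside 11.8% and 14.9% of all features. Irf5 and Irf7 entered the test only through the non-SMC lines. Stat2, a subunit of the ISRE-binding complex, measured -1.52, 1.16 and 0.41 in the non-SMC lines and -0.67, -0.44 and 0.17 in the SMC lines. Its groups overlapped, with non-SMC 1 the lowest line, and the difference was -0.33 ± 0.57 (adjusted p = 0.742). Irf9, the DNA-binding subunit of that complex, measured -0.89, 1.05 and 0.93 against -1.41, -0.89 and -0.90. Here non-SMC 1 lay at the level of SMC 2 and SMC 3, and the difference was -1.43 ± 0.42 (adjusted p = 0.147).

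Irf1, an activator induced by interferon gamma, measured 4.09, 2.93 and 3.73 against 1.39, 1.69 and 0.56. All SMC lines were below all non-SMC lines in both of its probes, with a difference of -2.37 ± 0.49 (adjusted p = 0.106). It passed without the pair as a term (adjusted p = 0.0386). Irf2, known as an antagonist of IRF1, measured -0.09, 0.23 and 0.25 against -0.15, -0.23 and -0.42. The groups were separated by a small margin, and the difference of -0.40 ± 0.30 did not pass (adjusted p = 0.447). Irf3, which is activated by nucleic acid sensors, measured 2.85, 3.58 and 3.84 against 3.33, 3.84 and 3.24. Its groups overlapped, the difference was 0.05 ± 0.36 (adjusted p = 0.942), and the sign turned to -0.03 with median scaling; a second probe gave 1.15 with all SMC lines higher.

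Irf5, Irf7 and Irf8 were each not well above background in 2 of the SMC lines. Irf5, a factor of Toll-like receptor signalling, measured -4.62, -4.28 and -1.97 in the non-SMC lines and -8.39, -6.28 and -6.0 in the SMC lines. The groups did not overlap, and the difference was -3.27 ± 0.53 (adjusted p = 0.0707). Irf7, which amplifies type I interferon production and is itself interferon-induced, measured -5.96, -0.59 and -0.39 against -5.57, -6.09 and -7.02. Non-SMC 1 fell among the SMC lines, so that the groups overlapped and the difference of -3.92 ± 1.55 had an adjusted p of 0.208. Without non-SMC 1, and without the pair as a term, the difference was -5.74 (adjusted p = 0.00742). Irf8, a factor of myeloid cells, measured -8.76, -3.83 and -3.08 against -6.54, -7.12 and -5.34, with non-SMC 1, SMC 1 and SMC 2 not well above background.

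**Figure D2:**
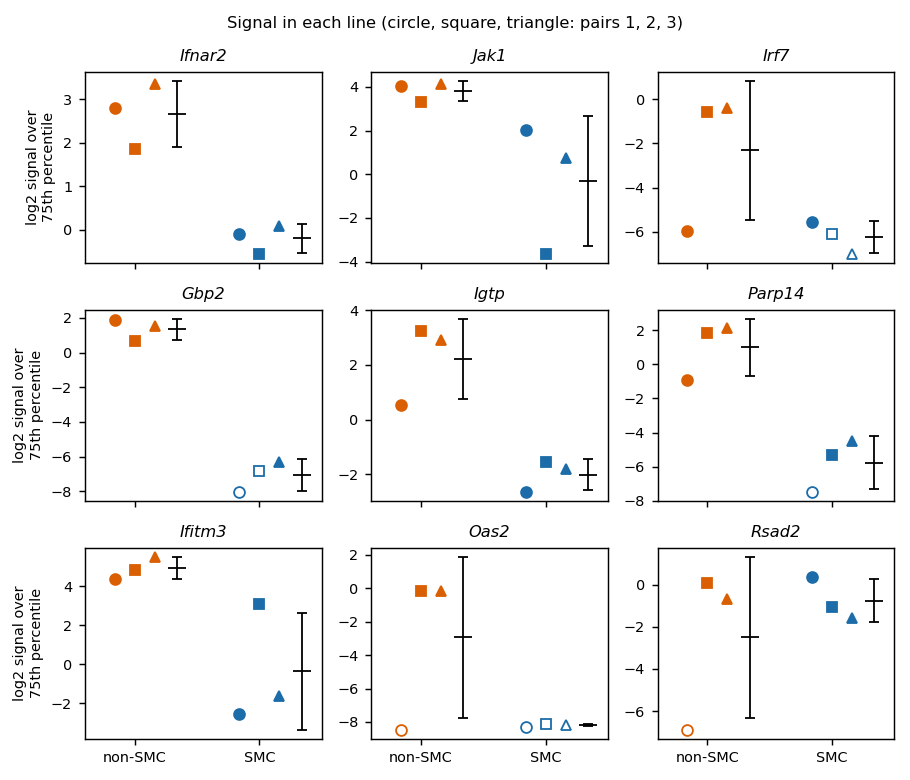
Log2 signal of 9 interferon genes relative to the 75th percentile of the array in each line; circle, square and triangle are pairs 1, 2 and 3, open symbols are not well above background, and black bars are the mean ± SD of 3 lines. Ifnar2, Gbp2, Igtp and Parp14 separate the groups, SMC 2 stands apart in Jak1 (-3.66) and Ifitm3 (3.07), and non-SMC 1 stands apart in Irf7 (-5.96), Oas2 (-8.49) and Rsad2 (-6.90).

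The guanylate-binding proteins and immunity-related GTPases, which attack the vacuoles of intracellular pathogens, were lower in all SMC lines for each of the 4 members tested, and 2 passed. Over all features, 15.4% were lower in all SMC lines and 3.03% were called lower. Gbp2 and Gbp3 entered the test only through the non-SMC lines, a filter that favoured genes lower in SMC. Of the 2 members measured on all arrays, 1 was called lower. Gbp2 measured 1.86, 0.69 and 1.54 in non-SMC lines 1 to 3 and -8.06, -6.84 and -6.29 in SMC lines 1 to 3. It was close to even among the non-SMC lines and well above background in SMC 3 alone among the SMC lines. Its difference was -8.43 ± 0.59 (adjusted p = 0.0145), or -7.65 with the dim signals raised to the lowest measured level of their array (adjusted p = 0.00813). Igtp, an immunity-related GTPase also known as IRGM3, measured 0.55, 3.23 and 2.92 against -2.66, -1.57 and -1.82. It was measured on all arrays without overlap, and its signal was 19-fold lower (-4.25 ± 0.46, adjusted p = 0.0325).

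Gbp3, a further guanylate-binding protein gene, had a call that depended on how dim signals were treated. It measured 0.52, 1.21 and 2.12 in the non-SMC lines and -4.70, -8.52 and -8.50 in the SMC lines, where SMC 1 alone was well above background, and the difference was -8.53 ± 1.2 (adjusted p = 0.0551). With the dim signals raised to the lowest measured level it was -7.02 and passed (adjusted p = 0.0253). Irgm1, a regulator of the other immunity-related GTPases, measured 1.44, 3.19 and 2.14 against -1.79, -2.10 and -1.26. Its difference of -3.97 ± 0.54, without overlap, just missed the threshold (adjusted p = 0.0518; 0.0472 with dim signals of all features raised in that way). Gbp4 was well above background in non-SMC 2 (-3.67) and non-SMC 3 (-2.42) alone, and non-SMC 1 was at -8.67.

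Poly-ADP-ribose polymerases of the interferon response gave the smallest adjusted p among the members. Parp14, a mono-ADP-ribosyltransferase, measured -0.93, 1.84 and 2.12 in the non-SMC lines and -7.50, -5.32 and -4.47 in the SMC lines. In this probe the pairs agreed closely, at -6.58, -7.16 and -6.59, and the difference was -6.78 ± 0.31 (adjusted p = 0.00745). SMC 1 was not well above background. With the dim signals raised to the lowest measured level of their array, the difference was -6.40 (limma adjusted p = 0.0129). The 2 other probes gave -4.23 and -4.56 with no overlap between groups, but their pairs agreed less closely. Parp9, which works as a partner of DTX3L, measured -0.53, 0.18 and 0.49 against -2.29, -2.04 and -2.12. All SMC lines were lower and the difference of -2.19 ± 0.33 did not pass (adjusted p = 0.0602).

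Of the 4 effectors outside these families, 3 were called lower, beside 3.03% of all features: Xaf1, Samd9l and Ifi44. Samd9l and Ifi44 entered the test only through the non-SMC lines, a filter that favoured genes lower in SMC. Of the 2 measured on all arrays, 1 was called lower, beside 1.08% of such features. Xaf1, an antagonist of the apoptosis inhibitor XIAP, measured -1.05, 1.53 and 0.69 in the non-SMC lines and -5.28, -5.59 and -4.68 in the SMC lines. All 6 arrays measured it, and its signal was 47.7-fold lower in the SMC lines (-5.58 ± 0.65, adjusted p = 0.0381). Samd9l, a restriction factor for poxviruses and a growth suppressor, measured -1.15, -0.43 and -0.20 against -5.57, -8.11 and -6.61. It was well above background in SMC 1 alone of the SMC lines, with a difference of -6.17 ± 0.72 (adjusted p = 0.0381).

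Ifi44, a cytoplasmic interferon-induced protein, measured -3.11, 1.60 and 1.39 in the non-SMC lines and -8.28, -8.22 and -7.01 in the SMC lines, none of which was well above background. Its signal was at least 76.6-fold lower in the SMC lines, a bound that sets the mean of the non-SMC lines against the lowest measured level of each SMC array (fitted difference -7.80 ± 1.00, adjusted p = 0.0464). With the dim signals raised to that level the adjusted p was 0.0736. Ifi35, a protein that binds NMI, measured 1.67, 2.09 and 2.38 against 0.05, 0.42 and 0.31. All SMC lines were lower, by similar amounts, and the difference of -1.78 ± 0.29 did not pass (adjusted p = 0.0733).

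Membrane proteins that hold virus particles back were mixed, and 1 of 4 passed, beside 3.03% of all features called lower. Ifitm1, which blocks fusion of viruses at the cell surface, measured -1.60, -1.21 and -0.25 in the non-SMC lines and -4.58, -3.77 and -3.37 in the SMC lines. Its 3 pairs differed by -2.98, -2.56 and -3.12, a 7.39-fold lower signal (-2.89 ± 0.30, adjusted p = 0.0303). Ifitm3, which acts in endosomes, measured 4.38, 4.84 and 5.51 against -2.53, 3.07 and -1.61. SMC 2 lay far above the other SMC lines, which left a difference of -5.27 ± 1.26 (adjusted p = 0.120); without pair 2 it was -7.02 (adjusted p = 0.0306).

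Ifitm2, the closest relative of Ifitm3, measured 3.35, 2.79 and 3.17 in the non-SMC lines and 2.20, 3.21 and 2.20 in the SMC lines. Again SMC 2 was the highest SMC line, here within the range of the non-SMC lines, and the difference was -0.57 ± 0.44 (adjusted p = 0.453). Probes of such similar genes may also bind the transcripts of relatives, which was not tested for the Ifitm, Ifit, Oas and Gbp genes. Bst2, or tetherin, which anchors budding virus, measured -0.11, 4.38 and 4.85 against -2.39, -1.34 and -2.09. Non-SMC 1 lay between non-SMC 2 and 3 and the SMC lines, with a difference of -4.98 ± 1.02 (adjusted p = 0.104).

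**Figure D3:**
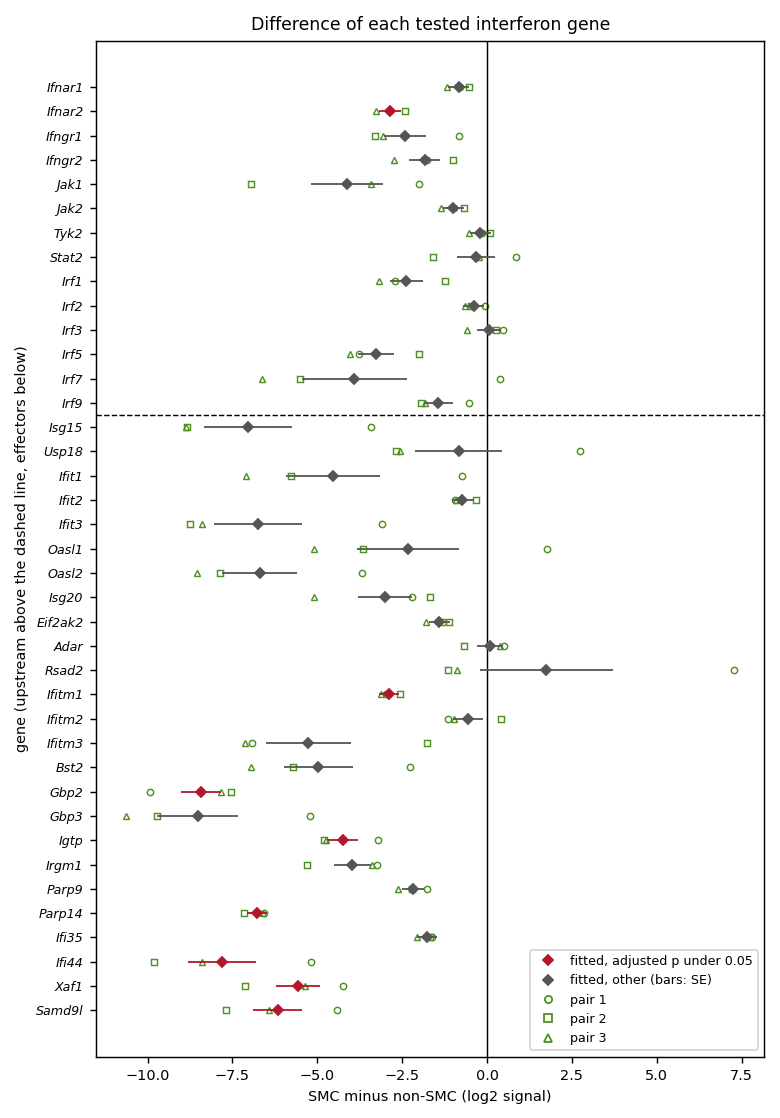
Fitted SMC minus non-SMC difference in log2 signal (diamonds, bars ± SE) of the 39 tested interferon genes, with each pair's own difference as an open green symbol; red diamonds mark the 8 genes with a limma adjusted p under 0.05. Most diamonds lie left of 0, the pairs agree closely for Parp14, Ifitm1 and Ifnar2, and pair 1 lies to the right of 0 for Usp18, Oasl1, Irf7 and Rsad2.

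Among the remaining families, classical antiviral effectors, 0 of 11 genes tested passed, with 6 lower and 0 higher at an unadjusted limma p under 0.05. Over all features, 11.8% were lower and 14.9% higher at that p. Of the 11, 3 entered the test only through the non-SMC lines and 1 only through the SMC lines. Isg15, a ubiquitin-like modifier secreted and conjugated during the interferon response, measured 0.41, 4.75 and 4.60 in the non-SMC lines and -3.02, -4.08 and -4.26 in the SMC lines. All SMC lines were lower, but non-SMC 1 differed from the mean of the other non-SMC lines by -4.27, and the difference of -7.04 ± 1.30 did not pass (adjusted p = 0.0898). Without pair 1 it was -8.85 (adjusted p = 0.0471). Usp18, the protease that removes ISG15 and also dampens IFNAR2 signalling, measured -4.70, 2.15 and 1.37 against -1.97, -0.52 and -1.20. Non-SMC 1 was the lowest of all 6 lines, so pair 1 differed by 2.73 and pairs 2 and 3 by -2.67 and -2.58 (fitted -0.84 ± 1.28, adjusted p = 0.704).

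The IFIT proteins bind viral RNA ends and block its translation. Ifit3 measured -2.67, 2.52 and 2.70 in the non-SMC lines and -5.78, -6.24 and -5.69 in the SMC lines, and the groups did not overlap (-6.75 ± 1.31, adjusted p = 0.0966). Ifit1 measured -0.58, 1.84 and 0.76 against -1.33, -3.95 and -6.35, with SMC 3 not well above background (-4.55 ± 1.39, adjusted p = 0.153). Ifit2 was nearly even, at 0.23, -0.53 and -0.07 against -0.72, -0.86 and -0.99 (-0.73 ± 0.31, adjusted p = 0.228). Ifit1 and Ifit3 thus spanned several log2 units among lines of 1 group, and Ifit2 did not.

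The 2′-5′ oligoadenylate synthetases make the messenger that activates RNase L, and their signal set non-SMC 2 and non-SMC 3 apart from the other 4 lines. Oas1a measured -8.75, 1.76 and 1.60 in the non-SMC lines and -8.49 and -8.33 in SMC 1 and SMC 2, and SMC 3 had no usable spot. Oas2 measured -8.49, -0.15 and -0.14 against -8.28, -8.12 and -8.15. Oas3 measured -8.53, -1.98 and -3.68 against -8.27, -7.63 and -8.17. In each of the 3 genes, non-SMC 1 and the measured SMC lines were not well above background, so these values have no order. The other Oas2 probe was dim, not well above background, in every line.

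Of the OAS-like proteins, Oasl2 measured -1.14, 2.23 and 2.16 in the non-SMC lines and -4.82, -5.63 and -6.37 in the SMC lines, which did not overlap (-6.69 ± 1.10, adjusted p = 0.0733). Oasl1, a regulator of Irf7 translation, measured -3.10, 0.72 and 0.78 against -1.34, -2.93 and -4.32. Its groups overlapped, because non-SMC 1 lay below SMC 1 and SMC 2 (-2.33 ± 1.49, adjusted p = 0.374).

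The 3 enzymes that act on RNA gave 0 calls. At an unadjusted limma p under 0.05, 2 were lower and 0 higher, beside 11.8% and 14.9% of all features. Isg20, an exonuclease, measured -0.04, 1.08 and 1.32 in the non-SMC lines and -2.27, -0.61 and -3.77 in the SMC lines (-3.0 ± 0.79, adjusted p = 0.131). Eif2ak2, the kinase PKR that halts translation on sensing double-stranded RNA, measured -0.26, 0.60 and 1.29 against -1.57, -0.53 and -0.50 (-1.41 ± 0.31, adjusted p = 0.111). Neither gene overlapped between groups. Adar, an editor of double-stranded RNA, measured 0.81, 1.63 and 1.16 against 1.32, 0.96 and 1.55, and its groups overlapped (0.08 ± 0.38, adjusted p = 0.915; -0.01 with median scaling). A second Adar probe gave -1.85 with all SMC lines lower, so the 2 probes disagreed.

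Rsad2, or viperin, whose product is a chain terminator of viral RNA synthesis, was the only tested member with a difference above 0.1. It measured -6.90, 0.08 and -0.68 in the non-SMC lines and 0.37, -1.07 and -1.57 in the SMC lines. Non-SMC 1 was the only line not well above background, so Rsad2 entered the test only through the SMC lines. SMC 1 was the highest line, and the groups overlapped (1.74 ± 1.96, adjusted p = 0.602). Without pair 1 the difference was -1.02 (adjusted p = 0.291).

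Effector signal was thus uneven within the non-SMC group, and non-SMC 1 was the line that stood apart. Of 28 effectors with a value in every line and a signal well above background in at least 1, 13 were over 2 log2 units lower in non-SMC 1 than in both non-SMC 2 and non-SMC 3. They were Bst2, Gbp4, Ifi44, Ifit3, Igtp, Isg15, Oas2, Oas3, Oasl1, Oasl2, Parp14, Rsad2 and Usp18. That share of 46.4% stands beside 8.32% of 15684 named genes, and beside 2 of 15 upstream genes, Irf7 and Irf8. In the same measure non-SMC 2 and non-SMC 3 had 0 effectors apart on the low side, beside only 0.842% and 0.976% of the named genes. Of the 29 effectors on the array, 24, 29 and 29 were well above background in non-SMC lines 1 to 3 and 22, 20 and 20 in SMC lines 1 to 3. Non-SMC 1 was alone on its slide, so line and slide cannot be told apart here.

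Other effectors did not follow that pattern. Relative to the mean of non-SMC 2 and 3, Gbp2, Ifitm3 and Samd9l stood at 0.75, -0.79 and -0.84 in non-SMC 1 and at -8.18, -5.53 and -6.45 in the SMC lines on average. Of the upstream genes, Jak1 and Ifnar2 stood at 0.32 and 0.19 in non-SMC 1. The effectors Rsad2 and Usp18 lay the other way, at -6.60 and -6.46 in non-SMC 1 and at -0.46 and -2.99 in the SMC lines.

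**Figure D4:**
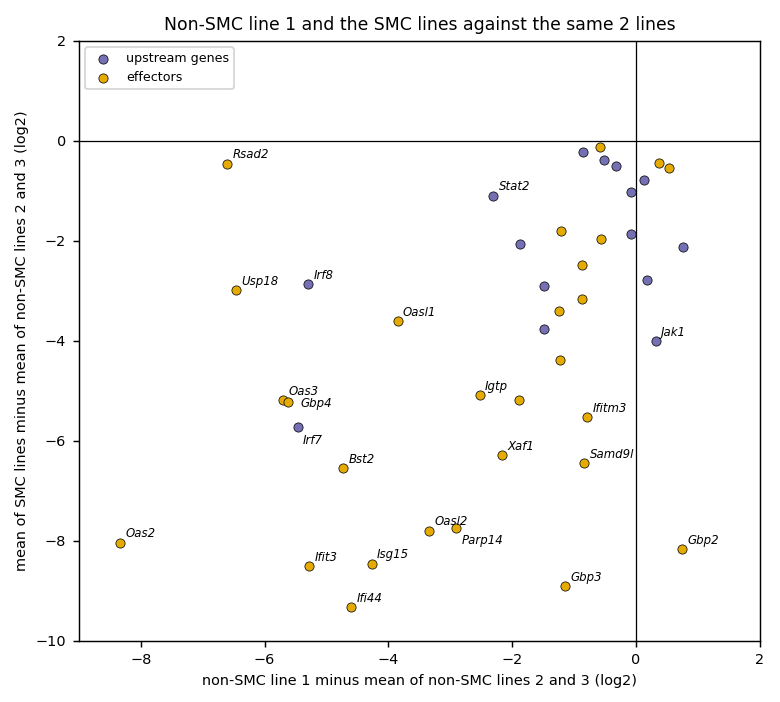
Each point is an interferon gene; the horizontal axis is non-SMC 1 minus the mean of non-SMC 2 and 3, and the vertical axis is the mean of the SMC lines minus the same mean, both in log2 signal. Both axes subtract the same mean, so no correlation is read from them; Oas2 is low on both axes, Gbp2 and Gbp3 are low in the SMC lines alone, and Rsad2 is low in non-SMC 1 alone.

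Further genes of the pathway, from a list of 54 other ligands, receptors, regulators and interferon-induced genes, gave 7 lower and 0 higher of 37 tested, beside 3.03% lower and 0.156% higher of all features. At an unadjusted limma p under 0.05, 21 were lower and 0 higher, beside 11.8% and 14.9% of all features. Of the 37, 8 entered the test only through the non-SMC lines, Ifi204, Ifi47 and Gbp7 among them, and this filter favoured genes lower in SMC. Of 27 measured on all arrays 3 were called lower, beside 1.08% of such features. The largest differences were in the DNA-binding protein gene Ifi204 and the immunity-related GTPase gene Ifi47. Ifi204 measured 3.09, 2.55 and 4.02 in the non-SMC lines and -5.16, -8.35 and -5.91 in the SMC lines (-9.69 ± 0.61, adjusted p = 0.0124). Ifi47 measured 0.71, 1.71 and 1.46 against -8.30, -8.22 and -7.72, where no SMC line was well above background, and was at least 193-fold lower (adjusted p = 0.00704). Both were even among the non-SMC lines, non-SMC 1 included.

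Gbp7, another guanylate-binding protein gene, measured -2.40, -1.71 and -0.89 in the non-SMC lines and -8.12, -8.36 and -7.11 in the SMC lines, none well above background, and was at least 24.8-fold lower (adjusted p = 0.00907). Uba7, the activating enzyme for ISG15, measured -0.71, 0.67 and 1.19 against -4.90, -5.42 and -4.52 (-5.33 ± 0.49, adjusted p = 0.024). The other 3 past the threshold were Gbp5, Irgm2 and Nmi. The 6 regulators of the pathway tested, such as Socs1 and Socs3, gave differences of -1.24 to 0.78 and 0 calls, with 0 at an unadjusted limma p under 0.05. Of the 8 interferon ligand genes on the array 0 could be tested, and Ifnb1, interferon beta, was well above background in non-SMC 2 alone, at -4.89.

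Leukocyte markers were checked because immune cells carry many of these genes. Of 13 leukocyte and macrophage markers on the array, 6, 8 and 12 were well above background in non-SMC lines 1 to 3 and 5, 5 and 10 in SMC lines 1 to 3. Their summed log2 signal was 0.96, 2.10 and 3.94 in the non-SMC lines and -2.38, -1.61 and 0.57 in the SMC lines, which did not overlap. That separation rested on Cd14, a lipopolysaccharide co-receptor, at 0.66, 1.96 and 3.54 in the non-SMC lines and -6.47, -4.53 and -5.97 in the SMC lines (-7.71 ± 0.70, adjusted p = 0.0233). Without Cd14, a sum added after its values were seen, the groups overlapped, at -1.48, -1.35 and 1.89 against -2.47, -1.82 and 0.56. Singly, Fcer1g was also lower in all SMC lines, at -2.49, -2.46 and 0.75 against -3.77, -2.86 and -3.35. Its difference of -1.93 ± 0.83 did not pass (limma adjusted p = 0.232). The other leukocyte markers on the array overlapped between groups. Ptprc, the leukocyte antigen CD45, was well above background in non-SMC 3 (-3.54) and SMC 1 (-5.87) alone. Tyrobp, an adaptor of myeloid cells, stood at -0.26 in non-SMC 3 and at most -5.10 elsewhere. Adgre1 (-2.29) and Itgam (-4.14) were well above background in non-SMC 3 alone. Lyz2, of the same list, went the other way, at -1.05 in non-SMC 3 and 0.12 in SMC 3, and was not well above background elsewhere. The part of leukocyte markers in the differences was not tested. Of the 6 endothelial markers, Cdh5, Cldn5, Pecam1 and Tie1 were not well above background on any array. Kdr was well above background in non-SMC lines 1 to 3 (-4.90, -4.23 and -4.62) and in SMC 2 (-4.41). Tek was so in SMC 1 (-4.53) and SMC 3 (-5.44).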

How the data were processed

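Gene expression was measured in 3 non-SMC and 3 SMC lines on 1-colour Agilent arrays (design 014868). Per the file headers, the authors quantified the scans with Feature Extraction 10.7.3.1 and deposited, per spot, a processed signal intensity that is background-subtracted and not normalized between arrays; the authors' deposited series table holds log2 values with equal quantiles. Earlier steps: not given in the sources used here. Outlier-flagged and control spots were left out, spots of a probe were averaged, and each array's 75th percentile was subtracted from the log2 signal. The normexp alternative used median spot intensities, because the mean intensity column the plan named was not in the files as given. Probes were named by matching their accession to a RefSeq table (GRCm38.p6; 27479 of 41174 probes). Probes had to be well above background in every line of 1 group or the other, and the brightest such probe stood for its gene. limma 3.58.1 (R 4.3.3) was fitted with pair and group over all 19848 features, two-sided, with Benjamini-Hochberg adjustment, 2 residual and 2.07 prior degrees of freedom, so the number of arrays limits the precision. The script was tested on simulated data.

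Pairs come from the labels' pair entries; deviations from group means correlated at -0.01, 0.14 and 0.00 within pairs and at -0.15 to 0.13 across pairs. Alternatives were other normalizations, backgrounds, filters, probe rules, array weights, the slide as a block, no pair, and pairs or lines left out. All members were reported: values in every line for tested upstream genes, genes past the threshold and, per family, the genes with the largest and smallest difference; from the pathway list, the 4 largest differences past the threshold; other probes where they differed in sign or by over 1. Eif2ak2, Bst2, Ifit1, Irf8, Gbp4, the untested OAS genes, Ifnb1, the fibroblast markers and the genes of the last paragraph of results were named beside that rule. Members, lists and rules were chosen with earlier results of these data known.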

Additional observations from a re-analysis of the deposited data

Results flagged for a closer look

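In 3 of 39 interferon genes (7.69%, against 14.7% of all features) pair 2, labelled male, differed in the opposite direction to pairs 1 and 3, labelled female. The SMC minus non-SMC difference in pair 2 was 0.0877 for Tyk2, -0.669 for Adar and 0.414 for Ifitm2. These opposite signs rest on 1 pair and were not tested.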

How the results depend on the processing

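Over 22 other settings, 34 of the 39 tested interferon genes kept the direction of their difference and 5 reversed in at least 1. Irf3 went to -0.058 with array weights, -0.031 with median scaling and -0.121 on the shared slide alone, and Adar to -0.886 with the mean of its probes, -0.0052 with median scaling and -0.255 on the shared slide, where Rsad2 went to -0.051. With a pair or line left out, differences ran from -1.10 to 0.31 for Stat2, from -0.24 to 0.37 for Irf3, from -2.99 to 0.43 for Usp18, from -0.14 to 0.45 for Adar and from -1.02 to 3.19 for Rsad2.

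Counts below are given in the order interferon genes lower, upstream genes lower, effectors lower, pathway list lower, all features higher and all features lower; with the pair as a term they were 8, 1, 7, 7, 31 and 602. Without the replicate block for the pair they were 15, 2, 13, 13, 274 and 975; with median scaling 16, 2, 14, 14, 239 and 974; without a filter 2, 0, 2, 6, 7 and 383; with features measured on all arrays 4, 1, 3, 2, 4 and 135; with the slide as a block 5, 0, 5, 8, 9 and 466; on the shared slide without the block 12, 1, 11, 12, 20 and 612. Array weights gave 11 effectors and normexp gave 52 features higher; Gbp3, Irgm1, Parp9 and Ifi35 passed with normexp, where Irf5 was at -0.95. With a pair left out they ran from 0 to 7, 0 to 1, 0 to 7, 0 to 9, 0 to 523 and 0 to 496, lowest without pair 3, and with a line left out and no block from 2 to 18, 0 to 3, 2 to 15, 4 to 17, 17 to 1559 and 432 to 1147. The cause was not tested. No setting called an interferon gene higher (0 at an unadjusted limma p under 0.05 in each). Gbp2 passed in 20 of 21 settings that held it, Parp14 in 17 of 21, Xaf1 in 16 of 22 and Ifi44 in 10 of 21. Signals not well above background set the limit for dim genes.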

Other observations

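Cmpk2, the mitochondrial nucleotide kinase gene that neighbours Rsad2 in the RefSeq table of GRCm38.p6, measured -8.35, -0.63 and -2.37 in non-SMC lines 1 to 3 and 0.98, 0.01 and -0.14 in SMC lines 1 to 3, and non-SMC 1 was the only line not well above background. All SMC lines were above all non-SMC lines, but the difference of 4.07 ± 1.89 did not pass (limma adjusted p = 0.256). Ifnlr1, the receptor chain for interferon lambda, was not well above background in non-SMC 1 (-8.53) and SMC 3 (-8.23) and measured 0.06 and 0.97 in non-SMC 2 and 3 and -1.20 and -0.19 in SMC 1 and 2. These 2 lines were the ones that lay alone on their slides. Cmpk2 entered the test only through the SMC lines, and both genes were chosen after their values were seen.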
